A study of Mus musculus with 6 samples.

Results

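The urea cycle and the enzymes that break down amino acids were examined in the livers of mice fed the NASH diet. The 50 genes were taken by symbol from the table of 17460 gene symbols, and all 50 were found and passed the filter on low values, which asked for a normalized value of 1 or more in 3 or more livers. They fall into 8 roles, with 9 genes of methionine and sulfur amino acids, 8 of the urea cycle and 4 to 7 in each of the others. The question was whether the expression of these genes differed between control livers and livers lacking Blnc1, a long noncoding RNA.

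Liver RNA came from 6 C57BL/6 mice aged 9 months, 3 labelled control and 3 labelled Blnc1 LKO (liver-specific knockout), and all had received the NASH diet for 24 weeks. Per the study's methods, Blnc1 LKO mice are Cas9 transgenic animals that received an adenovirus with sgRNAs against Blnc1 by tail vein. The control mice of the high-fat diet cohort were Cas9 transgenic animals given a GFP adenovirus, and the sources used here do not restate the control for the NASH diet cohort. Adenovirus reaches hepatocytes better than the non-parenchymal cells of the liver, so a whole-liver library holds RNA of cells that were edited and of cells that were not. Blnc1 itself was not analysed here, so its loss was not checked in these livers. Separate animals per library are implied by the labels but not stated, and p-values measure the spread between these samples.

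Hepatocytes remove the nitrogen of amino acids in linked steps. Transaminases and dehydrogenases strip amino groups from the carbon skeletons, and the ammonia formed is joined to bicarbonate in mitochondria and passed through ornithine, citrulline, argininosuccinate and arginine to release urea. The carbon skeletons enter gluconeogenesis, ketone body formation or one-carbon metabolism. Periportal hepatocytes are known for urea synthesis and for the breakdown of serine, histidine and glutamine, whereas pericentral hepatocytes capture the remaining ammonia as glutamine.

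The 6 libraries held 65384969 to 89350181 reads on the listed genes, the lowest in Blnc1 LKO liver 1 and the highest in Blnc1 LKO liver 3. All values are normalized read counts, the reads of a gene divided by the size factor of the liver, with no correction for gene length. The 5 hepatocyte markers analysed here, which code for albumin and other plasma proteins, summed to 5173390 to 5739110 in the controls and 5038306 to 6118832 in the Blnc1 LKO group, and none was at 0. Pericentral hepatocyte markers summed to 676085 to 727785 in the controls and 758036 to 1030500 in the Blnc1 LKO group, and 10 of 10 had a higher mean in Blnc1 LKO livers. Periportal markers, 6 of whose 10 genes are among the 50, summed to 788026 to 866828 and 692185 to 858189. Stellate cell markers were at 97670 to 107286 and 83035 to 98103, and 3 neutrophil markers reached 4141 in Blnc1 LKO liver 3 against 426 to 894 in the other livers. The summed levels of 12 genes known to be higher in male liver were 625982 to 891306 in the controls and 938073 to 1273294 in the Blnc1 LKO group. Endothelial markers summed to 22227 to 23485 and 21457 to 22140, and the sums of Kupffer cell, cholangiocyte and lymphocyte markers overlapped between the groups. Sums can hide single genes. At an unadjusted p under 0.05 (limma), beside 5.68% of all genes tested, there were 10 of the 12 male-biased genes and 4 of 10 pericentral markers, all higher in mean. There were also 5 of 9 Kupffer cell and macrophage markers, 1 of them lower in mean. Of 6 endothelial and 8 stellate cell markers there were 3 each, all lower. Hepatocyte, periportal, cholangiocyte, lymphocyte and neutrophil markers had 0. DESeq2 called the stellate cell genes Acta2, Col1a1 and Col3a1, each lower, and the pericentral gene Cyp2e1, higher, beside 0.538% of all genes. The part of these differences in the values below was not tested, and in whole liver fewer cells of a type and less RNA per cell cannot be told apart.

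None of the 50 genes passed an adjusted p under 0.05 between control and Blnc1 LKO livers in limma, edgeR or DESeq2. Over all genes tested, limma called 0.00578%, edgeR 0.0116% and DESeq2 0.538%. Among the 50 genes the smallest adjusted p was 0.739 in limma (Sdsl), 0.732 in edgeR (Sdsl) and 0.0984 in DESeq2 (Gpt2). At an unadjusted p under 0.05 there were 3 in limma, 2 in edgeR and 4 in DESeq2. The shares over all genes tested were 5.68%, 5.60% and 4.89%. The 3 genes in limma were Sdsl, Gpt2 and Got1, each lower in mean in the Blnc1 LKO group, and 2.74% of all genes tested had such a p and a lower mean.

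Of the 50 genes, 28 were lower and 22 higher in mean log2 value in the Blnc1 LKO group. Their median log2 fold change on the log2(value + 1) scale was -0.012, beside -0.00099 over all genes tested. Fold changes ran from -0.40 for Ass1 to 0.17 for Ahcy. The 95% interval of the log2 fold change lay within 0.5 of 0, a 1.41-fold change in either direction, for 40 of the 50 genes and for 63.6% of all genes tested. It lay within 0.25 of 0 for 13 of the 50 genes and for 35.1% of all genes, so the 50 genes were not more narrowly bounded at every limit. It lay within 1.0 of 0 for 49 of the 50 and for 80.8% of all genes, and the exception among the 50 was Ass1. The highest upper end was 0.67, for Hal.

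**Figure D1:**
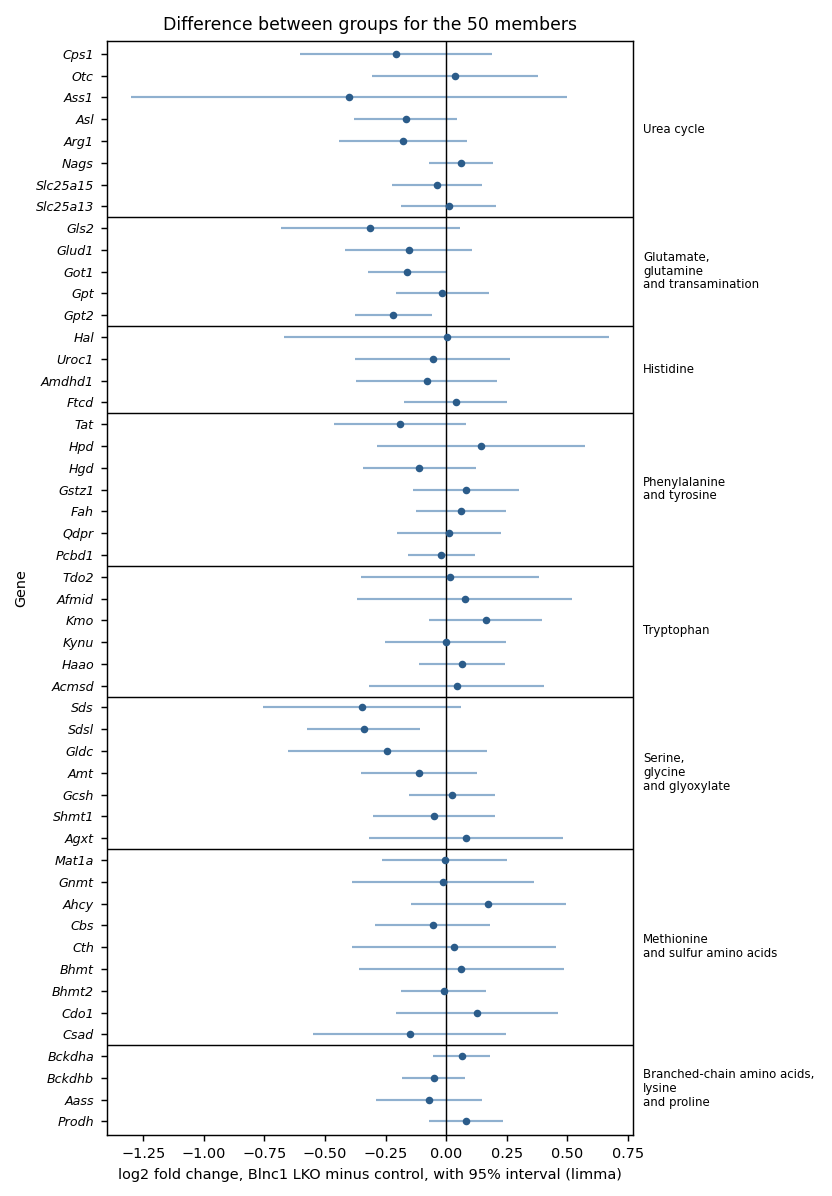
Log2 fold change of each of the 50 genes (points, Blnc1 LKO minus control, on the log2(value + 1) scale) with its 95% interval from limma (bars), grouped by role, n = 3 livers per group. Intervals that lie wholly below 0 belong to Gpt2, Got1 and Sdsl, and the widest belongs to Ass1.

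The median level of the 50 genes differed between single livers within each group. Blnc1 LKO liver 1 had the highest value of the 6 livers for 32 of the 50 genes, whereas it was highest for 25.5% of all genes tested. Control liver 3 was highest for 15 of the 50 and for 15.0% of all genes. Blnc1 LKO liver 2 had the lowest value for 27 of the 50 and for 18.6% of all genes. The median deviation of the 50 genes from the control mean, on the log2(value + 1) scale, was -0.017, -0.079 and 0.10 in the controls and 0.15, -0.17 and -0.079 in Blnc1 LKO livers, while that of all genes stayed within 0.005. The share of normalized reads in these genes was 2.09%, 2.01% and 2.36% in the controls and 2.32%, 1.99% and 2.0% in Blnc1 LKO livers. High and low livers thus occurred in both groups.

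Blnc1 LKO liver 1 stood apart from the other 2 livers of its group in these same 50 genes. Leaving it out therefore lowers most of their Blnc1 LKO means by construction, and the counts without it are a description only. Without it, 45 of the 50 genes were lower in mean in the Blnc1 LKO group, beside 49.9% of all genes, and their median log2 fold change was -0.14. In that comparison of 2 livers with 3, the groups did not overlap and were lower in Blnc1 LKO livers for 15 of the 50 genes, beside 10.4% of all genes tested. The 15 genes were Cps1, Gls2, Got1, Gpt2, Amdhd1, Hgd, Pcbd1, Kynu, Sds, Sdsl, Gldc, Amt, Shmt1, Mat1a and Aass, and none passed the adjusted threshold in limma (smallest adjusted p = 0.804, Gldc), with 9 of the 50 at an unadjusted p under 0.05 beside 5.68% of all genes. Without Blnc1 LKO liver 2, in contrast, 18 of the 50 were lower in mean and the median was 0.057. Control liver 3 had 46 of the 50 genes above the control mean, and without it 22 were lower in mean and the median was 0.028. Blnc1 LKO liver 1 also had the fewest reads, the highest sum of hepatocyte markers and the highest sum of pericentral markers, and the part of these in its values was not tested.

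With all 6 livers, the values of the groups did not overlap for 2 of the 50 genes, Gpt2 and Sdsl, both lower in Blnc1 LKO livers. Over all genes tested, 10.6% did not overlap in either direction and 5.28% were lower in Blnc1 LKO livers. A group of 2 livers overlaps less readily. The count of the 50 genes, in either direction, was 4 without control liver 1 (3 lower, 1 higher, beside 18.1% of all genes), 6 without control liver 2 (all lower, beside 18.6%) and 3 without control liver 3 (all lower, beside 18.6%). It was 8 without Blnc1 LKO liver 2 (3 lower, 5 higher, beside 28.3% of all genes) and 4 without Blnc1 LKO liver 3 (3 lower, 1 higher, beside 20.6%). With total reads as the only scaling it was 4, all lower, beside 10.2%.

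**Figure D2:**
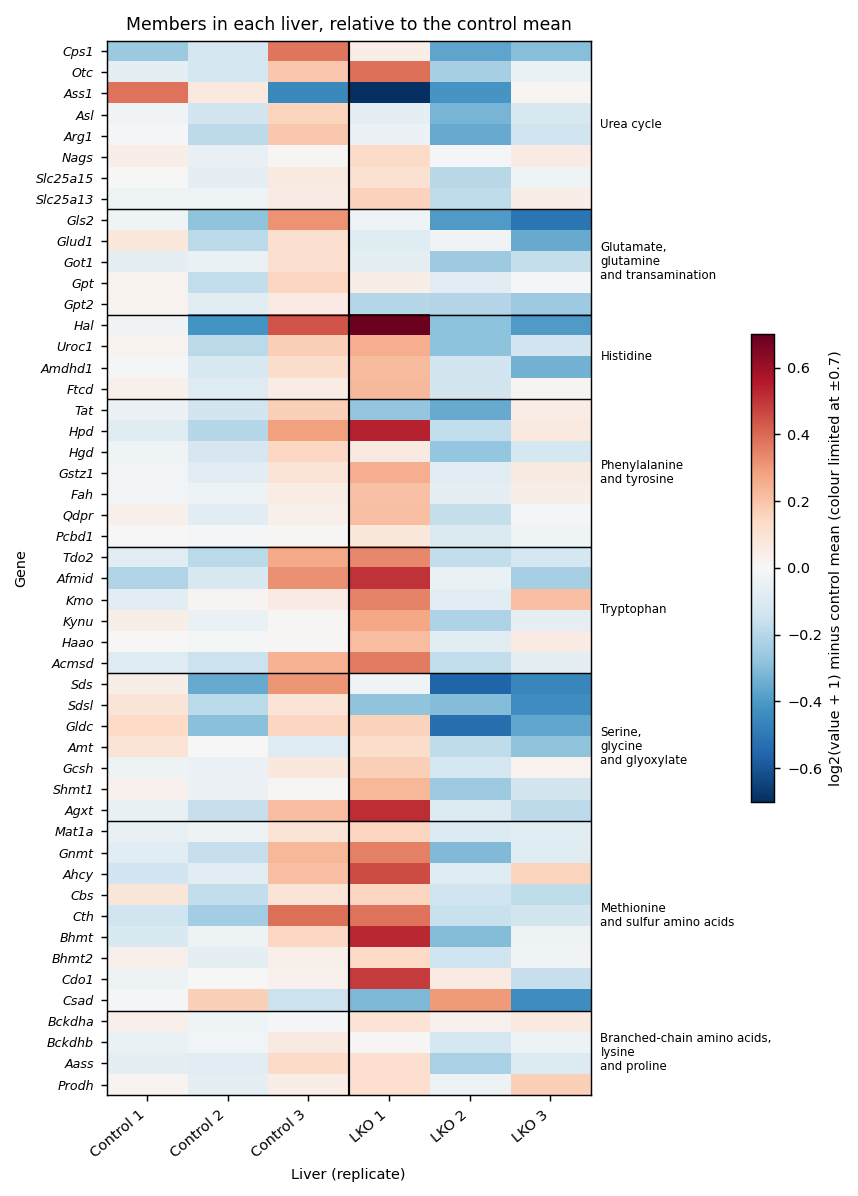
Deviation of each gene in each liver from the control mean on the log2(value + 1) scale (colour, limited at 0.7 in either direction), with the 50 genes in rows by role and the 6 livers in columns. Blnc1 LKO 1 is red for most genes and Blnc1 LKO 2 blue, and Csad runs opposite to most genes.

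None of the 8 urea cycle genes was called, and the groups overlapped for each of them. Cps1 makes carbamoyl phosphate from ammonia and bicarbonate, the entry step of the cycle. It was at 93627, 103011 and 145254 in the controls and 115569, 86621 and 90869 in the Blnc1 LKO group, with the highest value in control liver 3 and overlapping groups. Its log2 fold change was -0.21 (SE 0.17, adjusted p = 0.971, limma). Leaving out 1 liver or changing the processing moved that fold change between -0.34 and -0.019.

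Otc joins carbamoyl phosphate to ornithine to form citrulline. Its values were 28355, 27306 and 33810 in the controls and 38768, 25312 and 28744 in the Blnc1 LKO group. Blnc1 LKO liver 1 was highest and Blnc1 LKO liver 2 lowest, so the range of the controls lay inside that of the Blnc1 LKO livers (log2 fold change 0.036, SE 0.15, adjusted p = 0.997, limma).

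Asl splits argininosuccinate into arginine and fumarate. It stood at 21657, 20109 and 24479 in the controls and at 21063, 17558 and 20355 in the Blnc1 LKO group. The lowest value was that of Blnc1 LKO liver 2 and the groups overlapped (log2 fold change -0.17, SE 0.093, adjusted p = 0.930, limma).

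Arg1 releases urea from arginine and returns ornithine. Control livers had 76485, 67835 and 87594 and Blnc1 LKO livers 74776, 60216 and 69764. Control liver 2 lay below Blnc1 LKO livers 1 and 3, so the groups overlapped, and the Blnc1 LKO mean was 88.3% of the control mean (log2 fold change -0.18, SE 0.12, adjusted p = 0.951, limma). Per kilobase of transcript Arg1 was the most abundant of the 8 urea cycle genes, with a control mean of 52339 normalized reads per kilobase, against 20516 for Cps1.

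The remaining 3 urea cycle genes had log2 fold changes of 0.060, -0.038 and 0.010. They were Nags, which makes the activator of Cps1, Slc25a15, which carries ornithine into mitochondria, and Slc25a13, an aspartate and glutamate carrier. The median log2 fold change of the 8 genes was -0.10, and 5 of 8 were lower in mean in the Blnc1 LKO group. Both figures include Ass1, whose log2 fold change of -0.40 rests on few reads.

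Ass1, which joins citrulline to aspartate, had almost no counted reads. Its values were 12.1, 9.59 and 6.39 in the controls and 4.76, 6.58 and 9.19 in the Blnc1 LKO group, where 1 read is worth 0.836 to 1.19 depending on the liver. The next lowest value of any of the 50 genes in any liver was 475 (Sdsl, Blnc1 LKO liver 3). At 5.52 normalized reads per kilobase in control livers, Ass1 lay far below its neighbours in the pathway, Otc at 9951 and Asl at 9151. Its log2 fold change of -0.40 (SE 0.39, adjusted p = 0.973, limma) rests on these few reads, and its 95% interval ran from -1.30 to 0.50.

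Most of the Ass1 transcript has a near-identical copy in the mouse genome. Ass1 lies on chromosome 2, 31470207 to 31520672, + strand (GRCm38, the assembly also called mm10), and the processed pseudogene Gm5424 on chromosome 10, 62071123 to 62072362, + strand. In GENCODE release M21 the 1696-base transcript Ass1-201 aligned without gaps to Gm5424 over 1240 bases, of which 1234 were identical (99.52%) and 6 differed, and the aligned stretch spans the coding sequence. Of all 50-base windows of the transcript, 55.31% occur letter for letter in Gm5424. A stretch of 120 bases inside the coding sequence, bases 556 to 675 of Ass1-201 and bases 354 to 473 of Gm5424-201, both 5′ to 3′ on the + strand, is shown for both copies because reads from it can be placed by 2 bases alone, which are in capitals.
Ass1: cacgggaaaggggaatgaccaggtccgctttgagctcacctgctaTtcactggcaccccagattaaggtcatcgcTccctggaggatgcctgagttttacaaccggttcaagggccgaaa
Gm5424: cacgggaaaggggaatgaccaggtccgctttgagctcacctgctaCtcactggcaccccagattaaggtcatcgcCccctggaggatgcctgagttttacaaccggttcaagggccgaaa
Gm5424 was not analysed here, and how reads with several matching places were counted is not given in the sources used here, so the part of the copy in the low Ass1 value was not tested.

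Shared sequence concerned other genes as well. Of the 50 genes, 31 shared no 50-base window with another gene in GENCODE M21 and 7 shared over 20% of theirs. Besides Ass1 these were Ahcy at 76.98% (most with Gm4737), Afmid at 64.0% (Gm20708), Bhmt at 61.49% (Gm5096), Bckdha at 50.81% (B3gnt8), Sds at 28.89% (Plbd2) and Nags at 20.01% (Gm11586). For Afmid, Bckdha, Sds and Nags the shared stretch includes exons that overlap the other gene on the genome, and 11 of the 50 genes have such overlap. The library kit does not mark strand, so reads from overlapping exons cannot be assigned by strand, and the levels of these 7 genes are uncertain.

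**Figure D3:**
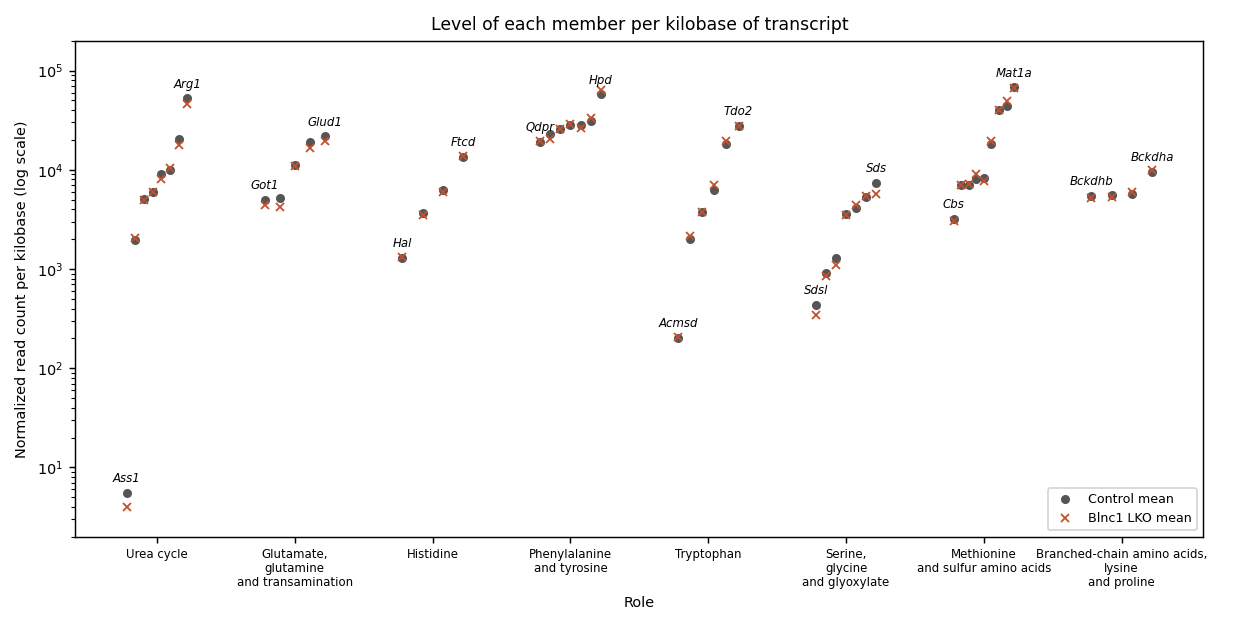
Level of each gene as normalized read count per kilobase of its longest protein-coding transcript (vertical log axis) by role, as the mean of 3 control livers (dots) and of 3 Blnc1 LKO livers (crosses), with the lowest and highest gene of each role named. Mat1a was highest at 67655 in control livers, Acmsd was at 201, and Ass1 was at 5.52.

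Genes of glutamate, glutamine and transamination had the lowest median of the 8 roles, with 5 of 5 lower in mean and a median log2 fold change of -0.16. Gpt2, the mitochondrial alanine transaminase (chromosome 8, 85492576 to 85527560, + strand), was at 70608, 65811 and 72336 in the controls and 60610, 60314 and 58355 in the Blnc1 LKO group. Every Blnc1 LKO liver was below every control liver, and the Blnc1 LKO mean was 85.9% of the control mean. The log2 fold change was -0.22 (SE 0.070, 95% interval -0.38 to -0.060), with an unadjusted p of 0.0126 and an adjusted p of 0.787 (limma). Across all alternatives the adjusted p ranged from 0.0984 (DESeq2) to 0.9997 and the log2 fold change from -0.26 to -0.19, so the difference was not called in any of them.

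Got1, the cytosolic aspartate transaminase, was at 9659, 9815 and 10944 in the controls and 9679, 8476 and 9011 in the Blnc1 LKO group. Blnc1 LKO liver 1 lay just above control liver 1, so the groups overlapped (log2 fold change -0.16, SE 0.071, unadjusted p = 0.0486, adjusted p = 0.873, limma). Scaled by total reads alone, the groups of Got1 no longer overlapped.

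Glud1 releases ammonia from glutamate in mitochondria and had the highest level per kilobase of the 5 genes, 21683 in control livers. It was at 77086, 64207 and 79224 in the controls and 68928, 71979 and 57274 in the Blnc1 LKO group, with overlapping groups (log2 fold change -0.15, SE 0.11, adjusted p = 0.968, limma). Gls2, the liver glutaminase, had a log2 fold change of -0.31 (SE 0.16, adjusted p = 0.913, limma), and Gpt, the cytosolic alanine transaminase, had -0.016 (SE 0.084). The difference between Gpt2 and Gpt was not tested.

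Serine, glycine and glyoxylate genes had a median log2 fold change of -0.11, with 5 of 7 lower in mean. Sdsl is related in sequence to serine dehydratase and lies close to it on chromosome 5 (120458186 to 120472810, - strand). Its values were 684, 564 and 686 in the controls and 527, 521 and 475 in the Blnc1 LKO group. No Blnc1 LKO liver reached the lowest control liver, and the Blnc1 LKO mean was 78.7% of the control mean. The log2 fold change was -0.34 (SE 0.10, 95% interval -0.57 to -0.11), with an unadjusted p of 0.00942 and an adjusted p of 0.739 (limma). That adjusted p ranged from 0.296 to 0.9997 over the alternatives.

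Sds, the serine dehydratase that forms pyruvate from serine (chromosome 5, 120476526 to 120483932, + strand), was at 9560, 7303 and 11554 in the controls and 9158, 6302 and 6782 in the Blnc1 LKO group. Control liver 2 lay below Blnc1 LKO liver 1, so the groups overlapped. Its Blnc1 LKO mean was 78.3% of the control mean, near the percentage of Sdsl, but its spread was wider (log2 fold change -0.35, SE 0.18, adjusted p = 0.908, limma).

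The glycine cleavage genes Gldc, Amt and Gcsh had log2 fold changes of -0.24, -0.11 and 0.024. Shmt1, which interconverts serine and glycine, had -0.051, and Agxt, which removes glyoxylate in peroxisomes, had 0.081. In Blnc1 LKO livers, Agxt ran from 5589 to 9089, and the highest value was that of Blnc1 LKO liver 1.

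**Figure D4:**
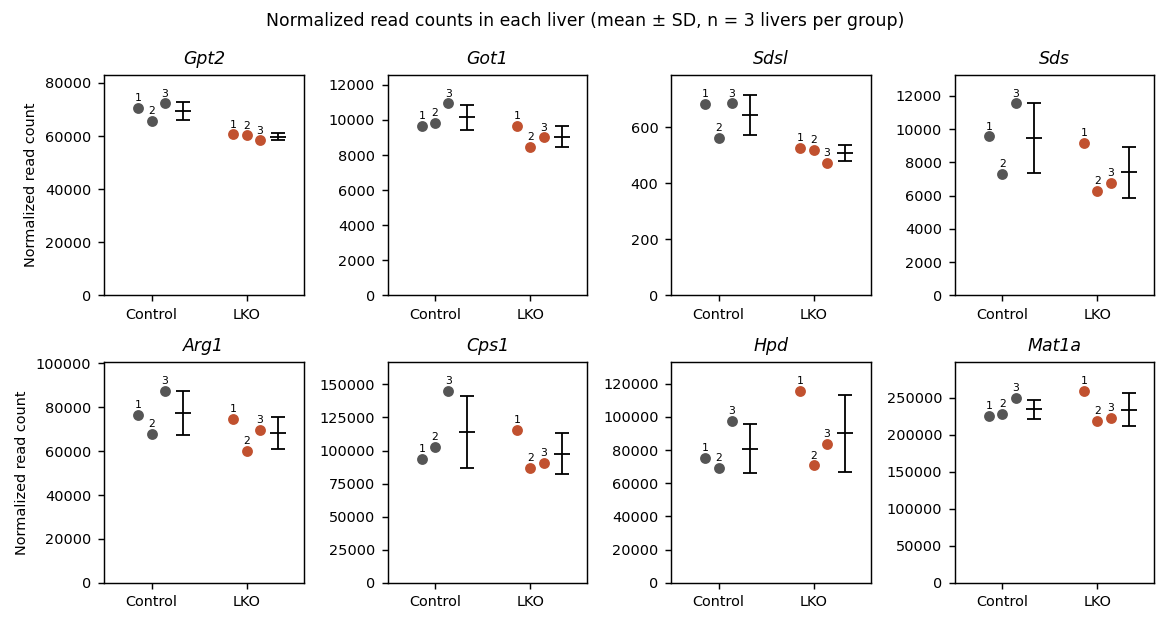
Normalized read counts of 8 genes in each liver (points, numbered by replicate, vertical axis from 0), with the mean and SD of 3 control and 3 Blnc1 LKO livers beside them. The groups do not overlap for Gpt2 and Sdsl and overlap for Got1, Sds, Arg1, Cps1, Hpd and Mat1a.

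Histidine breakdown starts with Hal, the histidine ammonia lyase, which varied widely within each group, with a coefficient of variation of 29.9% among control livers and 44.4% among Blnc1 LKO livers. Hal ranged from 4959 to 9001 in control livers and from 5041 to 10648 in Blnc1 LKO livers (log2 fold change 0.0013, SE 0.29). Amdhd1, the imidazolonepropionase, was at 8698, 8166 and 9578 in the controls and 10261, 8005 and 7002 in the Blnc1 LKO group, and the controls lay inside the Blnc1 LKO range (log2 fold change -0.081, SE 0.13, adjusted p = 0.981, limma).

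Ftcd passes the formimino group of the histidine skeleton to folate. It was at 26555, 24291 and 26864 in the controls and 30292, 23638 and 26240 in the Blnc1 LKO group, again with Blnc1 LKO liver 1 highest (log2 fold change 0.039, SE 0.093, adjusted p = 0.989, limma). Uroc1, the urocanate hydratase, had -0.056 (SE 0.14).

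In phenylalanine and tyrosine breakdown, 3 of 7 genes were lower and 4 higher in mean. Tat, the tyrosine transaminase, was at 53427, 50281 and 61594 in the controls and 45461, 43069 and 56915 in the Blnc1 LKO group. Blnc1 LKO livers 1 and 2 lay below all controls and Blnc1 LKO liver 3 lay among them (log2 fold change -0.19, SE 0.12, adjusted p = 0.951, limma). In Blnc1 LKO liver 1, 39 of the 50 genes were above the control mean, and Tat was not among them.

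Hpd, the dioxygenase that follows Tat, had 75224, 69453 and 97516 in the controls and 115829, 70767 and 83779 in the Blnc1 LKO group, with overlapping groups (log2 fold change 0.14, SE 0.19, adjusted p = 0.978, limma). Its fold change was -0.053 without Blnc1 LKO liver 1. Hgd, which opens the aromatic ring of homogentisate, had 46779, 44079 and 52934 in the controls and 49865, 39669 and 43827 in the Blnc1 LKO group, also overlapping (log2 fold change -0.11, SE 0.10, adjusted p = 0.973, limma). Gstz1 and Fah, the last enzymes of tyrosine breakdown, had 0.080 and 0.060, and Qdpr and Pcbd1, which regenerate the tetrahydrobiopterin cofactor of phenylalanine hydroxylation, had 0.011 and -0.020. Pcbd1 varied by 0.608% among control livers (coefficient of variation), and by 6.2% among Blnc1 LKO livers.

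Tryptophan breakdown had 5 of 6 genes higher in mean, with a median log2 fold change of 0.054. Tdo2, the dioxygenase of its first step, was at 88500, 82276 and 112748 in the controls and 118201, 83132 and 85988 in the Blnc1 LKO group. The groups had 1 high liver each, control liver 3 and Blnc1 LKO liver 1 (log2 fold change 0.014, SE 0.16, adjusted p = 0.9998, limma).

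Kmo hydroxylates kynurenine. It was at 21765, 23256 and 23822 in the controls and 29217, 21825 and 26528 in the Blnc1 LKO group, and Blnc1 LKO livers 1 and 3 were above all controls while Blnc1 LKO liver 2 was not (log2 fold change 0.16, SE 0.10, adjusted p = 0.951, limma). Without Blnc1 LKO liver 2 its fold change was 0.28 and its adjusted p 0.260.

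Haao makes the precursor of quinolinate, and its control livers were close together at 25498, 25129 and 25594. Blnc1 LKO livers had 29517, 24076 and 26397, which lay on both sides of the controls (log2 fold change 0.065, SE 0.078, adjusted p = 0.976, limma). Afmid, Kynu and Acmsd, which act elsewhere in the kynurenine pathway, had log2 fold changes of 0.076, -0.0025 and 0.043. Acmsd was the least abundant per kilobase after Ass1, at 201 in control livers.

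Methionine and sulfur genes included the most abundant of the 50 per kilobase. Mat1a, which makes S-adenosylmethionine, was at 225991, 228354 and 249539 in the controls and 259754, 219289 and 222968 in the Blnc1 LKO group. The group means differed by less than the spread within each group (log2 fold change -0.0067, SE 0.11, 95% interval -0.26 to 0.25, adjusted p = 0.9998, limma).

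Ahcy hydrolyses S-adenosylhomocysteine and had the highest fold change of the 50 genes. It was at 18546, 19323 and 23614 in the controls and 27962, 19175 and 22669 in the Blnc1 LKO group, with overlapping groups (log2 fold change 0.17, SE 0.14, adjusted p = 0.971, limma). Its fold change was 0.033 without Blnc1 LKO liver 1, and most of its transcript is shared with other genes, as given above.

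Cdo1 oxidizes cysteine on the way to taurine and sulfate. Control livers were close together at 68948, 70766 and 72257, whereas Blnc1 LKO livers had 99167, 73377 and 63173. The Blnc1 LKO livers thus lay on both sides of the controls (log2 fold change 0.13, SE 0.15, adjusted p = 0.973, limma), and their coefficient of variation was 23.6% against 2.35% in control livers.

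Csad, which follows Cdo1 in taurine synthesis, ran opposite to most of the 50 genes and was chosen after its values were seen. It was at 18718, 21187 and 17009 in the controls and 15175, 23239 and 14001 in the Blnc1 LKO group. Blnc1 LKO liver 2 was highest and control liver 2 next, the livers where most of the other genes were low (log2 fold change -0.15, SE 0.17, adjusted p = 0.973, limma). Gnmt, Cbs, Cth, Bhmt and Bhmt2, which use or remake methionine and homocysteine, had log2 fold changes of -0.014, -0.055, 0.031, 0.063 and -0.010.

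The 4 genes of branched-chain amino acids, lysine and proline had a median log2 fold change of 0.0059, with 2 lower and 2 higher in mean. Bckdha, a subunit of the branched-chain ketoacid dehydrogenase, was at 18717, 17865 and 18140 in the controls and 19461, 18612 and 19110 in the Blnc1 LKO group. Control liver 1 lay above Blnc1 LKO liver 2, so the groups overlapped (log2 fold change 0.063, SE 0.052, adjusted p = 0.971, limma). Bckdhb, the partner subunit, had a log2 fold change of -0.052 (SE 0.057).

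Prodh, the proline dehydrogenase, was at 13710, 12880 and 13974 in the controls and 14638, 13176 and 15155 in the Blnc1 LKO group. Blnc1 LKO livers 1 and 3 were above all controls and Blnc1 LKO liver 2 was not (log2 fold change 0.081, SE 0.067, adjusted p = 0.971, limma). Aass, the first enzyme of lysine breakdown, had -0.070 (SE 0.096).

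Other genes of amino acid metabolism, mainly of breakdown, were counted from a separate list, of which 60 were tested. The list also holds Asns, Phgdh, Psat1, Psph and Glul, which make asparagine, serine or glutamine. Each of these was higher in mean in the Blnc1 LKO group. None passed the adjusted threshold in limma, edgeR or DESeq2, and 2 had an unadjusted p under 0.05 in limma, 2 in edgeR and 3 in DESeq2, beside 5.68%, 5.60% and 4.89% of all genes tested. Of the 60 genes, 17 were lower and 43 higher in mean, while 50.4% of all genes tested were lower. Their median log2 fold change was 0.049, beside -0.012 for the 50 genes above and -0.00099 over all genes. Their values summed to 812473 to 890845 in the controls and to 1026632, 806787 and 908611 in Blnc1 LKO livers 1, 2 and 3. Glul and Oat were also counted among the pericentral markers. Agmat, the agmatinase, was at 10271, 9616 and 10342 in the controls and 11657, 10802 and 11359 in the Blnc1 LKO group, so its groups did not overlap (log2 fold change 0.16, SE 0.056, adjusted p = 0.824, limma). Prodh2, which acts on hydroxyproline, had a log2 fold change of 0.20 (SE 0.081, adjusted p = 0.860, limma).

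Of 23 amino acid transport genes, limma and edgeR called 0 and DESeq2 called 1, beside 0.00578%, 0.0116% and 0.538% of all genes. At an unadjusted p under 0.05 there were 4 in each of limma, edgeR and DESeq2, beside 5.68%, 5.60% and 4.89% of all genes tested. The gene called was Slc3a1, a subunit of a transporter of cystine and basic amino acids. It was at 2289, 2389 and 2294 in the controls and 1804, 1429 and 1509 in the Blnc1 LKO group, and every Blnc1 LKO liver was below every control. Its log2 fold change was -0.56 (SE 0.087), with an adjusted p of 0.296 in limma and 6.29e-05 in DESeq2, and the adjusted p ranged from 6.29e-05 to 0.9997 over the alternatives. Without Blnc1 LKO liver 1 it was called in limma (log2 fold change -0.66, adjusted p = 0.0431). Slc1a4, a carrier of small neutral amino acids, had a log2 fold change of -0.35 (SE 0.082), with an adjusted p of 0.548 in limma and 0.0703 in DESeq2. Every Blnc1 LKO liver was below every control for Slc1a4 too, as for 5.28% of all genes tested.

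Regulators of amino acid breakdown gave no call among 18 genes in limma, edgeR or DESeq2, and 2, 2 and 1 of them had an unadjusted p under 0.05, beside the same 5.68%, 5.60% and 4.89% of all genes. The transcription factor gene Cebpb had a log2 fold change of -0.22 (SE 0.081, adjusted p = 0.840, limma). Sirt3, a mitochondrial deacetylase, had 0.13 (SE 0.052, adjusted p = 0.857, limma).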

How the data were processed

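RNA was sequenced from 3 control and 3 Blnc1 LKO livers with the TruSeq RNA kit, version 2, on polyA-selected mRNA. The authors used STAR for alignment to mm10, HTSeq for counting and DESeq2 for testing, and versions, annotation and the handling of reads with several matches are not given in the sources used here. The deposited values are a signal that the authors made by scaling the reads of each gene with 1 size factor per liver. Dividing by the value of 1 read gave whole reads for 100% of values (tolerance 0.01), 65384969 to 89350181 per liver.

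The design named limma for normalized values, so limma 3.58.1 (lmFit, eBayes with trend, R 4.3.3) was fitted to log2(value + 1) over the 17297 genes that reached a value of 1 in 3 or more livers, without covariates, with Benjamini-Hochberg adjustment over all of them and a threshold of 0.05. Changes of low genes appear too small on this scale. With 3 against 3 livers, a permutation test, even an exact one, could not pass this threshold. Alternatives were a pseudocount of 0.1, no filter, at least 10 reads in every liver, edgeR 4.0.16 (quasi-likelihood), DESeq2 1.42.0 and voom on the recovered reads, total-read scaling, the replicate number as a block, and each liver left out. The fits were tested on simulated data. The 50 genes, the lists and the tests were chosen with earlier results of these data known.

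Named with the value in every liver were the 5 urea cycle enzymes, the 2 genes of smallest p and the gene of highest level per kilobase in each of the 8 roles, and any gene past the threshold. Of other lists, genes past the threshold and the 2 of smallest p were named. Gpt, Gls2 and other genes were given by fold change. Positions, lengths and sequences came from GENCODE M21 transcripts (GRCm38), in which all 50 symbols were found. Lengths are those of the longest protein-coding transcript. Alignments used Biopython 1.88. The table holds 23 symbols that a spreadsheet changed to dates, none of them among the 50.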

Additional observations from a re-analysis of the deposited data

How the results depend on the processing

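Of 384 values recomputed under the alternatives, 354 kept their direction and their side of the threshold, or moved by less than the limit set for them. In 14 the fold change of a named gene changed sign, and 16 moved. The median log2 fold change of the 50 genes is among the 354 because its limit was wide, at 0.136. It nevertheless changed sign, to 0.028 without control liver 3, 0.057 without Blnc1 LKO liver 2 and 0.014 without Blnc1 LKO liver 3. Without Blnc1 LKO liver 1 it was -0.14. No member of the list was called under any alternative. Over all genes, 1 gene was called, and 2 were called with no filter on low values, 2 in edgeR, 84 in DESeq2 and 0 with the replicate block, with 0 to 13 when a liver was left out. Of the other pathway genes 0 were called, 1 in DESeq2, and 0 to 1 when a liver was left out. Groups did not overlap for 2 of the 50 genes (10.6% of all genes), for 4 with total reads as the only scaling (10.2%), and for 3 to 15 when a liver was left out (18.1% to 28.3%, and 20.8% where the count was 15). Changes of sign occurred for 8 of the 23 named genes, all in fits without 1 liver, where the log2 fold change ranged from -0.15 to 0.15 for Tdo2, from -0.14 to 0.17 for Otc, from -0.055 to 0.12 for Ftcd, from -0.084 to 0.039 for Mat1a, from -0.053 to 0.30 for Hpd, from -0.011 to 0.14 for Haao, from -0.053 to 0.27 for Cdo1 and from -0.23 to 0.043 for Amdhd1. None of these genes passed the threshold in any fit. The other 15 named genes kept their direction.

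Whether same-numbered livers share more than their number is not given in the sources used here. The correlations of deviations from the group means between same-numbered livers were -0.058, -0.019 and -0.107. These cannot decide that question, and no liver was paired. The replicate block left 0 of the 50 genes called and 5 at an unadjusted p under 0.05 (limma), beside 5.27% of all genes. Without the block there were 3, beside 5.68% of all genes.

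Ass1 had too few reads for a statement on its level. Values of Ass1, Ahcy, Afmid, Bhmt, Bckdha, Sds and Nags depend on how shared reads were counted.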
